A study of Rattus norvegicus with 8 samples.

Results

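The 9 genes described here encode proteins that act as brakes on ERK signalling: the dual-specificity phosphatases Dusp1, Dusp4, Dusp5 and Dusp6, the Sprouty proteins Spry1, Spry2 and Spry4, and the Spred proteins Spred1 and Spred2. They were taken by gene name from the annotation of a 1-colour Agilent rat expression array, where 12 of 45598 distinct probes, printed as 22 spots, carry one of these names. Of the 9 genes, 7 had a probe well above background on at least 3 of 7 arrays and entered the tests with 8 of their probes, among 23111 tested probes of all genes. Dusp4 and Spred2 did not reach that limit, and their values are given without a test.

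The study asked how bone marrow-derived mesenchymal cells (BM-MCs) act on small hepatocyte-like progenitor cells (SHPCs), clusters of small hepatocytic cells that appear in rat livers treated with retrorsine, a plant alkaloid that blocks division of mature hepatocytes, and then with partial hepatectomy. RNA came from cells cut by laser microdissection (LMD) from hematoxylin-stained frozen liver sections of F344 rats. There were 2 samples of mature hepatocytes (MHs) and 3 samples of SHPC clusters, both from livers without transplanted cells (control), and 3 samples of SHPC clusters from livers that had received cultured BM-MCs through the spleen (SHPCs with BM-MCs, or BM-MC SHPCs). The labels place the MHs in control livers, while a passage of the study's text can be read as placing them in livers with BM-MCs, and the labels were followed. All recipients had retrorsine and partial hepatectomy, according to the study's methods, so no group stands for an untreated liver. The labels give the strain as DPPIV+, whereas the methods give the recipients as females of the DPPIV- strain, and the labels state neither age nor time. Clusters were cut by eye from sections, so each sample also holds whatever other cells lay in the cut area, and in such samples fewer cells of a type and less RNA per cell cannot be told apart. No label ties a sample to an animal, so p-values measure the spread between these samples, which may be technical, and are too small if samples share an animal.

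Growth factor receptors such as EGFR and MET pass their signal through Ras, Raf and MEK to the ERK kinases, a route that hepatocytes use when they enter the cell cycle. Active ERK induces transcripts of its own inhibitors within a short time, which is why Dusp, Spry and Spred transcripts are widely read as a record of recent ERK activity. DUSP proteins remove phosphate from ERK and related kinases, Sprouty proteins interfere between receptor and Raf, and Spred proteins bring the Ras inhibitor neurofibromin to the membrane.

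The RefSeq promoter table (GRCr8) held a window for 8 of the 9 genes, 9 windows in all, and none for Dusp4. The 250 bases before the start sites of Dusp1 (chr10:17184603-17184852, plus strand) and Dusp5 (chr1:262543524-262543773, plus strand) are shown because these are the genes whose BM-MC samples all lay above all control SHPC samples. Capitals mark TGACGTCA, the cAMP response element, in Dusp1, and the CArG box, the 10-base binding motif of serum response factor, in Dusp5.

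Dusp1: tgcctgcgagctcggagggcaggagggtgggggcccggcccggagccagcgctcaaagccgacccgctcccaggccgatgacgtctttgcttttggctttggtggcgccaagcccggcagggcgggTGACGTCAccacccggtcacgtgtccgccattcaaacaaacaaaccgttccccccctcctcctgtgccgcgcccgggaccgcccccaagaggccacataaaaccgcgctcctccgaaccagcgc
Dusp5: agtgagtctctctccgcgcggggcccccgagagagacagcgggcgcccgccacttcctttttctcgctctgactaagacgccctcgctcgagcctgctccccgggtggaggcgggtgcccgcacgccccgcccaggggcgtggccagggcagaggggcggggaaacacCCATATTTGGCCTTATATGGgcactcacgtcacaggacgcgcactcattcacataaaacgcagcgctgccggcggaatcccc

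In Dusp1 the cAMP response element runs from base 124 to base 117 before the start site. In Dusp5 a pair of adjoining CArG boxes covers bases 82 to 73 and bases 72 to 63 before the start site. On either strand, TGACGTCA was found in 1.59% and the CArG box in 1.5% of 33469 rat promoter windows of the same length, and among the 9 member windows each was found in 1. The AP-1 motif TGANTCA was in 0 of the 9 member windows and in 6.34% of all windows, and the ETS core CCGGAA was in 2 of the 9, those of Spry2 and Spry4, and in 12.6% of all windows. No overlap between these motifs was found in the member windows. These matches describe letters in the windows and not binding.

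The arrays lay on 1 slide and were scanned once, and 57.0% to 61.5% of spots were well above background with no saturated spot. For control SHPC replicate 2 the scanner output breaks off at 20903 of 62976 features, so its signals were taken from the deposited value table and its background marks are incomplete. The first 4 array positions held both MH samples with control SHPC replicates 1 and 2. The other 4 held the BM-MC samples with control SHPC replicate 3, so BM-MC and control SHPCs shared a position set through 1 control sample only. All 10 hepatocyte markers, from Alb to Cyp2e1, were well above background on all 7 arrays with complete marks. Levels below are log2 signals relative to the 75th percentile of the array, so a negative value is a signal under that percentile. Levels of different probes cannot be set against each other.

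**Figure D1:**
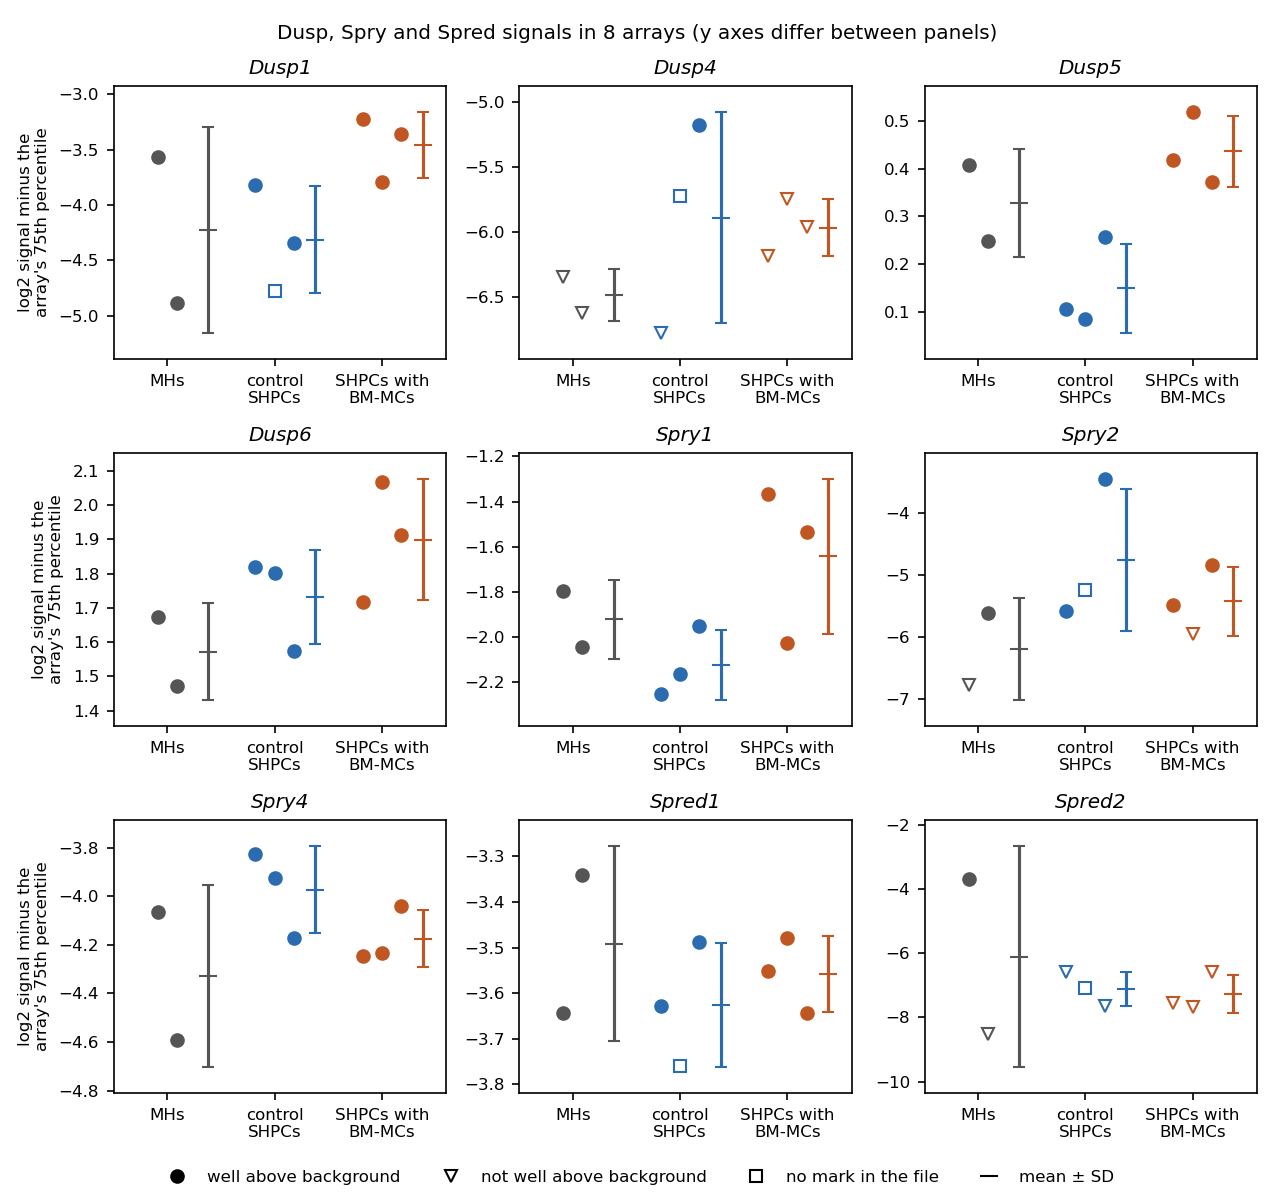
Level of each gene (log2 signal minus the array's 75th percentile, y axis) in MHs, control SHPCs and SHPCs with BM-MCs, 1 point a sample, with mean ± SD beside each group. Filled circles are well above background, open triangles are not, and open squares are spots for which the scanner file holds no mark. For Dusp1 and Dusp5 the 3 BM-MC samples sit above the 3 control SHPC samples, whereas Dusp4 and Spred2 have 1 filled point each.

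Among the phosphatases, Dusp1 and Dusp5 were higher in every sample of SHPCs with BM-MCs than in every sample of control SHPCs, but neither difference passed the adjusted threshold of 0.05. Dusp1 was 1.80-fold higher and Dusp5 was 1.22-fold higher. Dusp6 differed less between these groups, and Dusp4 was near or under the detection limit almost everywhere. The same comparison called 0 of the 7 tested genes, and it called 0.0216% of all tested probes.

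Dusp1 (chromosome 10, 17184853 to 17187646 in GRCr8) encodes a nuclear phosphatase of ERK, JNK and p38 that growth factors and stress induce within minutes. Its levels were -3.57 and -4.88 in the MHs, and -3.82, -4.78 and -4.34 in control SHPC replicates 1 to 3. With BM-MCs they were -3.23, -3.80 and -3.36. The lowest BM-MC sample was only slightly above the highest control SHPC sample, and the 2 MH samples spanned most of the range of the 8 samples, which was 3.14-fold. SHPCs with BM-MCs exceeded control SHPCs by 0.85 on the log2 scale (95% interval 0.18 to 1.52, unadjusted p = 0.020 and adjusted p = 0.24 from limma). Control SHPCs and MHs differed by -0.089 (interval -1.08 to 0.90), and SHPCs with BM-MCs and MHs by 0.76 (interval -0.23 to 1.75, adjusted p = 0.46 from limma). The last of these rested on which MH sample was used, at 0.11 without MH replicate 2 and 1.42 without MH replicate 1. With the slide position set as a block the difference between the SHPC groups was 0.88, and with normexp background correction and quantile normalization on 7 arrays it was 0.26.

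Dusp5 (chromosome 1, 262543774 to 262557201) encodes a nuclear phosphatase that acts on ERK and not on JNK or p38. Its levels were 0.41 and 0.25 in the MHs, and 0.11, 0.086 and 0.26 in control SHPC replicates 1 to 3. With BM-MCs they were 0.42, 0.52 and 0.37. The BM-MC samples lay above all control SHPC samples and overlapped the MHs. The difference between both SHPC groups was 0.29 (95% interval 0.024 to 0.55, unadjusted p = 0.037 and adjusted p = 0.28 from limma). It was 0.18 with the slide position set as a block and 0.096 with scaling to the median of each array. Control SHPCs lay 0.18 below the MHs in the fit (difference -0.18, interval -0.46 to 0.11), and SHPCs with BM-MCs differed from MHs by 0.11 (interval -0.18 to 0.39). With each sample left out these differences ran from -0.26 to -0.098 and from 0.029 to 0.19. The probe was printed as 2 spots, and these differed by 0.0058 to 0.17 on single arrays, against a range of 0.43 over the 8 array means.

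Dusp6 (chromosome 7, 35979502 to 35983834) encodes the cytoplasmic, ERK-selective phosphatase whose transcript is a common readout of ERK activity. Its levels were 1.67 and 1.47 in the MHs, and 1.82, 1.80 and 1.57 in control SHPC replicates 1 to 3. With BM-MCs they were 1.72, 2.07 and 1.91. BM-MC replicate 1 lay below control SHPC replicates 1 and 2, so the SHPC groups overlapped, whereas all BM-MC samples lay above both MH samples. SHPCs with BM-MCs and control SHPCs differed by 0.17 (95% interval -0.17 to 0.50, adjusted p = 0.56 from limma). This interval leaves room for a change of up to 1.42-fold upward or down to 0.889-fold. Control SHPCs differed from MHs by 0.16 (interval -0.20 to 0.52), and SHPCs with BM-MCs from MHs by 0.33 (interval -0.032 to 0.69, adjusted p = 0.41 from limma). With the slide position set as a block the last difference was 0.56 and that between the SHPC groups was 0.32. With each sample left out the difference between the SHPC groups ran from 0.082 to 0.26. That between control SHPCs and MHs ran from 0.061 to 0.26, and that between BM-MC SHPCs and MHs from 0.23 to 0.43.

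Dusp6 has the most spots of the genes, since its probe was printed as 10 spots on each array, of which 8 to 10 remained after outlier spots were left out. The SD between spots of 1 array was 0.039 to 0.10, whereas the SD of the 8 array means was 0.19. The spots within an array therefore varied less than the arrays did. Spots of 1 array share their RNA and labelling, so they measure the precision of the array and not that of a group.

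**Figure D2:**
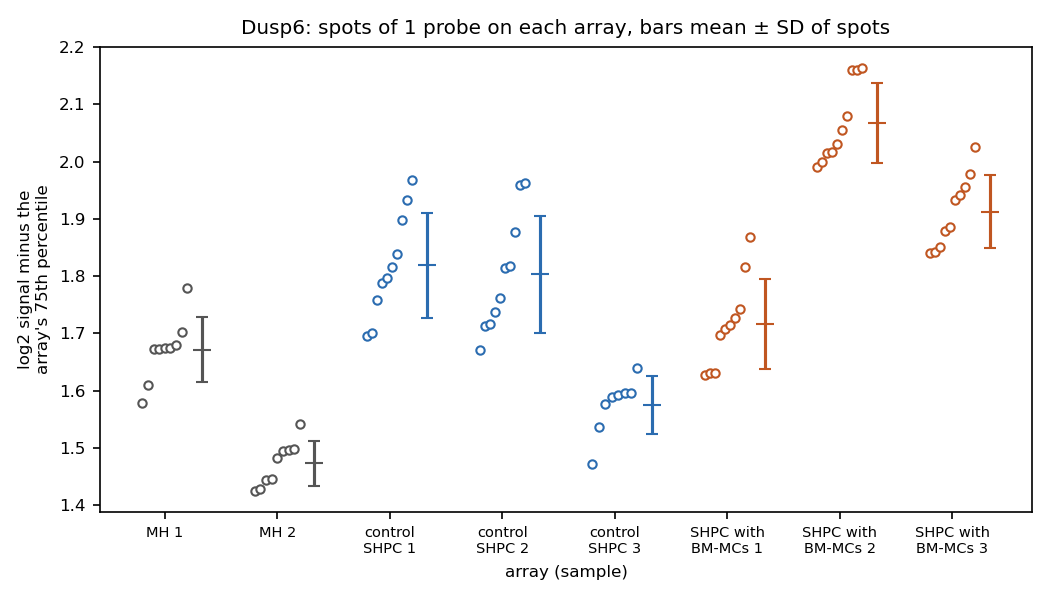
Dusp6 level (log2 signal minus the array's 75th percentile, y axis) in every retained spot of its probe on each of the 8 arrays (x axis), with the mean ± SD of the spots. Array means run from 1.47 in MH replicate 2 to 2.07 in BM-MC replicate 2, and the spots of an array spread over 0.12 to 0.29.

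The genes whose levels followed Dusp6 most closely over the 8 samples were Lysmd1 (Pearson r = 0.96), Iqck (r = 0.95), Pdia5 (r = 0.93), Hnrnpa3 (r = 0.93) and Cdk5rap3 (r = 0.93). They were picked as the highest among all tested genes and the 8 samples share 1 slide, so these coefficients describe likeness only. Among the members, Dusp6 correlated with Spry4 at r = 0.48, with Dusp1 at r = 0.46, with Dusp5 at r = 0.32, with Spry1 at r = 0.010, with Spry2 at r = -0.21 and with Spred1 at r = -0.41 over the same 8 samples. Dusp1, Dusp5 and Spry1 correlated with each other at r = 0.62 to 0.70, and Spry4 and Spred1 at r = -0.88, the lowest of all member pairs. Both Spred1 coefficients hold for its brightest tested probe only, which ranged over 1.34-fold in the 8 samples. The other tested Spred1 probe, with a range of 2.53-fold, was not correlated. On that probe BM-MC replicate 2, the highest sample for Dusp6, was also the highest (-3.25), so the coefficients do not stand for the gene.

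Dusp4 (chromosome 16, 64079893 to 64101396) encodes a nuclear phosphatase that ERK induces later than Dusp1. Its levels were -6.34 and -6.62 in the MHs, -6.77, -5.72 and -5.18 in control SHPC replicates 1 to 3, and -6.18, -5.75 and -5.96 with BM-MCs. The spot was well above background in control SHPC replicate 3 and in no other of the 7 arrays with a mark for it. Control SHPC replicate 1 was the lowest of the 8 samples, so control SHPCs overlapped the MHs, and no fold is given. In SHPCs with BM-MCs the spot was not well above background on any array.

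None of the Sprouty genes passed the adjusted threshold. Between the SHPC groups Spry1 had a positive difference, and those of Spry2 and Spry4 were negative but came close to 0 under 1 alternative each.

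Spry1 (chromosome 2, 122484995 to 122490008) encodes an inhibitor that receptor tyrosine kinases both induce and phosphorylate. Its levels were -1.80 and -2.05 in the MHs, and -2.25, -2.16 and -1.95 in control SHPC replicates 1 to 3. With BM-MCs they were -1.37, -2.03 and -1.54. BM-MC replicates 1 and 3 were the highest of the 8 samples, but BM-MC replicate 2 lay below control SHPC replicate 3, so the groups overlapped. The difference was 0.48, or 1.39-fold (95% interval 0.0049 to 0.95 on the log2 scale, unadjusted p = 0.048 and adjusted p = 0.30 from limma). It was 0.31 with the slide position set as a block, and 0.34 to 0.67 with each sample left out. Control SHPCs differed from MHs by -0.20 (interval -0.70 to 0.30), and SHPCs with BM-MCs from MHs by 0.28 (interval -0.22 to 0.78). With each sample left out these ran from -0.32 to -0.076 and from 0.14 to 0.47, and the slide position block put the latter at 0.022.

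Spry2 (chromosome 15, 89106809 to 89111926) encodes an inhibitor that binds the ubiquitin ligase CBL and the adaptor GRB2. The tested probe gave -6.76 and -5.60 in the MHs, and -5.58, -5.24 and -3.45 in control SHPC replicates 1 to 3. With BM-MCs it gave -5.48, -5.95 and -4.83. Control SHPC replicate 3 stood well above the other 7 samples, and the spot was not well above background in MH replicate 1 and BM-MC replicate 2. All control SHPC samples lay above both MH samples, though narrowly, with a difference of 1.42 (95% interval -0.14 to 2.99, adjusted p = 0.29 from limma). That difference was 0.84 without MH replicate 1, whose spot was dim, 2.01 without MH replicate 2, 0.77 without control SHPC replicate 3, 1.11 with dim spots set to the floor and 0.64 with normexp background correction and quantile normalization. Between the SHPC groups it was -0.66 (interval -2.09 to 0.77, adjusted p = 0.59 from limma) and -0.0096 without control SHPC replicate 3. With the slide position set as a block, where that sample is the only control beside the BM-MC samples, it was -1.96 (adjusted p = 0.27 from limma). Between BM-MC SHPCs and MHs it was 0.76 (interval -0.80 to 2.33) and -1.19 under the same block, and it was 0.18 without MH replicate 1, 1.34 without MH replicate 2, 0.54 with dim spots set to the floor and 0.11 with normexp. The other Spry2 probe was not well above background on any marked array.

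Spry4 (chromosome 18, 30687633 to 30702546) encodes an inhibitor that can act on Ras and Raf. Its levels were -4.07 and -4.59 in the MHs, and -3.82, -3.92 and -4.17 in control SHPC replicates 1 to 3. With BM-MCs they were -4.25, -4.23 and -4.04. Control SHPC replicates 1 and 2 were the highest of the 8 samples and MH replicate 2 the lowest. SHPCs with BM-MCs differed from control SHPCs by -0.20 (95% interval -0.53 to 0.13, adjusted p = 0.48 from limma) and from MHs by 0.15 (interval -0.29 to 0.60). Control SHPCs differed from MHs by 0.35 (interval -0.090 to 0.80, adjusted p = 0.35 from limma), which became 0.62 without MH replicate 1 and 0.091 without MH replicate 2. In the slide position block the difference between the SHPC groups was -0.0018.

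Of the Spred genes, Spred1 was well above background by 2 probes, which differed in their values, and Spred2 was well above background in 1 sample. One Spred1 probe (gene on chromosome 3, 124437230 to 124504358) gave -3.64 and -3.34 in the MHs, and -3.63, -3.76 and -3.49 in control SHPC replicates 1 to 3. With BM-MCs it gave -3.55, -3.48 and -3.64. The 3 groups overlapped, and the whole range of the 8 samples was 1.34-fold for this probe, against 2.53-fold for the other tested one. SHPCs with BM-MCs differed from control SHPCs by 0.067 (95% interval -0.22 to 0.36), so a change beyond 1.28-fold upward or 0.858-fold downward lay outside the interval. Control SHPCs differed from MHs by -0.13 (interval -0.47 to 0.21), and SHPCs with BM-MCs from MHs by -0.066 (interval -0.40 to 0.27). Another tested Spred1 probe gave 0.50 between the SHPC groups (interval -0.20 to 1.21, adjusted p = 0.42 from limma), the same sign with a larger value. On this probe BM-MC replicate 2 was at -3.25 against -4.35 and -4.06 in the other BM-MC samples. Its differences from MHs were -0.13 for control SHPCs and 0.37 for SHPCs with BM-MCs, the latter opposite in sign to the first probe. The last Spred1 probe was not well above background on any marked array.

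Spred2 (chromosome 14, 98350577 to 98452143) was well above background in MH replicate 1, at -3.68, and in no other marked array. MH replicate 2 gave -8.53, control SHPC replicates 1 to 3 gave -6.58, -7.09 and -7.66, and SHPCs with BM-MCs gave -7.55, -7.69 and -6.59. The MH samples thus disagreed by more than any pair of SHPC samples, and no fold is given.

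Between the SHPC groups, 3 of the 7 tested genes (Dusp1, Dusp5 and Spry1) were higher at an unadjusted p under 0.05 and 0 were lower, where 10.7% of all tested probes were higher and 5.92% lower. Groups did not overlap upward for 2 of the 7 and downward for 0, against 13.0% and 11.6% of all probes. The difference was positive for 5 of the 7, against 52.6% of all probes, with a median of 0.17 against 0.018. With 7 genes, 3 of them with unadjusted p-values between 0.020 and 0.048, these counts are a description. They also depend on the processing. For Dusp1, Dusp5 and Spry1 the unadjusted p-values from limma were 0.061, 0.42 and 0.20 with scaling to the median of each array. With the slide position set as a block they were 0.085, 0.27 and 0.31. Under that block Spry2 was lower (unadjusted p = 0.0049 and adjusted p = 0.27 from limma), with 1 control sample beside the BM-MC samples.

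Between control SHPCs and MHs, 0 of the 7 genes were called, where limma called 1.13% of all probes at the adjusted threshold. At an unadjusted p under 0.05, 0 of the 7 were higher and 0 lower, against 8.21% and 11.0%. Spry2 was the 1 gene whose groups did not overlap upward and 0 did not overlap downward, against 18.7% and 22.7%. The difference was positive for 3 of the 7, against 46.2%, with a median of -0.089 against -0.032. Between BM-MC SHPCs and MHs, which share the MH samples with the comparison before, 0 of the 7 were called against 0.338% of all probes. Again 0 were higher and 0 lower without adjustment, against 7.33% and 5.95%, and Dusp6 was the 1 gene whose groups did not overlap upward and 0 did not overlap downward, against 16.0% and 16.3%. The difference was positive for 6 of the 7, against 50.5%, with a median of 0.28 against 0.0030.

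**Figure D3:**
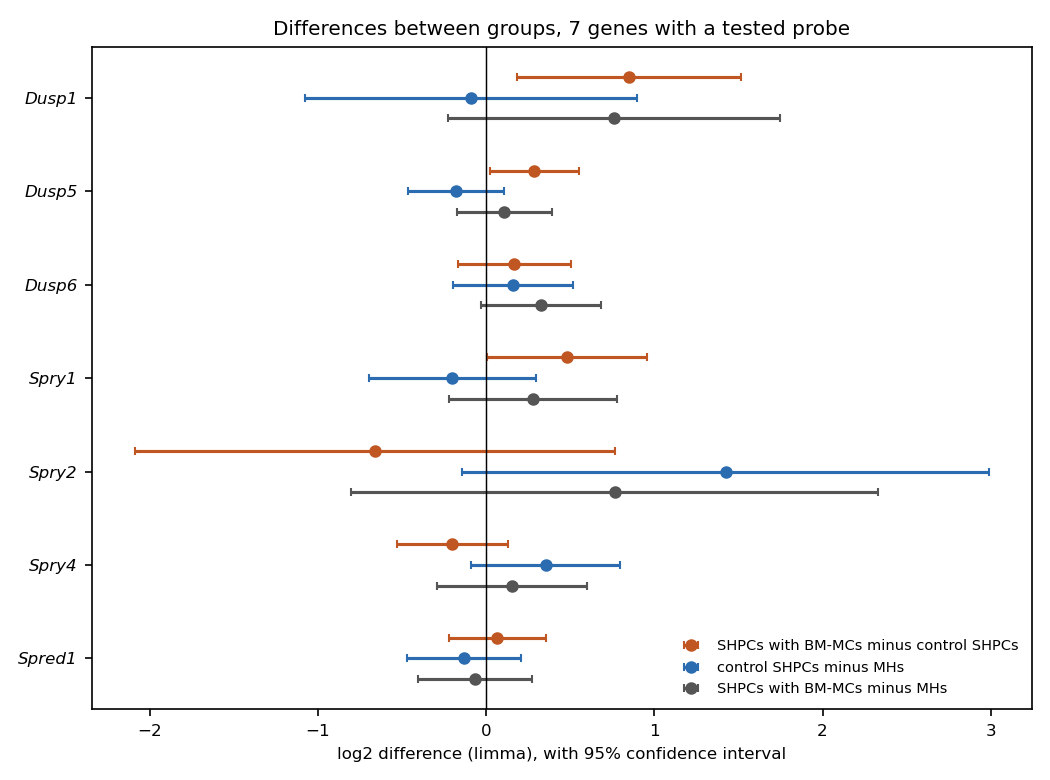
Log2 difference (x axis) with its 95% confidence interval from limma for the 7 genes with a tested probe (y axis), for the 3 comparisons between groups. Intervals for Dusp1, Dusp5 and Spry1 between the SHPC groups lie above 0, none of these passed after adjustment, and the intervals of Spry2 are the widest.

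The wider pathway was read from lists of genes in the same fits, and no gene of the 6 pathway lists passed the adjusted threshold in any of the 3 comparisons. In the Ras to ERK module 22 of 23 genes were tested. Between the SHPC groups 13 of the 22 had a positive difference (52.6% of all probes), with a median of 0.040. Mapk3, which encodes ERK1, differed by -0.24 (95% interval -0.54 to 0.070). Between control SHPCs and MHs the module had 6 positive differences of 22 (46.2% of all probes) and a median of -0.13. Groups did not overlap downward for 8 of the 22 and upward for 1, against 22.7% and 18.7% of all probes. Between BM-MC SHPCs and MHs 4 of 22 were positive (50.5% of all probes), with a median of -0.10. There 4 did not overlap downward and 0 upward, against 16.3% and 16.0%. Transcript levels of the kinases do not measure their phosphorylation, which is not analysed here.

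Of 17 ERK-driven transcripts, 10 were tested, and between the SHPC groups 7 of the 10 had a positive difference and 4 were higher at an unadjusted p under 0.05, with a median of 0.35. Over all tested probes 52.6% were positive and 10.7% higher, with a median of 0.018, shares that also apply to the receptors, brakes and phosphatases. Etv5, an ETS family transcription factor induced by ERK, was at -1.36, -1.31 and -1.31 in control SHPC replicates 1 to 3. With BM-MCs it was at -0.97, -0.62 and -0.92, and in the MHs at -1.01 and -1.18. Its SHPC groups did not overlap, and the difference was 0.49 (95% interval 0.18 to 0.80, adjusted p = 0.18 from limma). Ccnd1, the cyclin of the G1 phase, differed by 0.29 (interval -0.077 to 0.66), and was 0.86 below the MHs in control SHPCs (difference -0.86, adjusted p = 0.092 from limma). Egr1, an immediate early transcription factor, differed by -0.37 between the SHPC groups (interval -1.18 to 0.44), opposite in sign to Etv5. Etv4, Fos, Fosb, Fosl1 and Epha4 were well above background on 0, Phlda1 on 1 and Egr3 on 2 of the 7 arrays with complete marks. These genes of the list were therefore not tested. Between control SHPCs and MHs 3 of the 10 ERK-driven transcripts had a positive difference (46.2% of all probes), with a median of -0.15. Between BM-MC SHPCs and MHs 7 of the 10 had one (50.5% of all probes), with a median of 0.28.

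All 13 receptor tyrosine kinases were tested, and between the SHPC groups 9 had a positive difference and 3 were higher at an unadjusted p under 0.05, with a median of 0.19. Egfr, the receptor of EGF and TGF-alpha, was at 1.15, 1.0 and 1.5 in control SHPC replicates 1 to 3. With BM-MCs it was at 1.55, 1.63 and 1.98, and in the MHs at 1.4 and 1.26. All BM-MC samples lay above the other 5 samples, and the difference between the SHPC groups was 0.51 (95% interval 0.063 to 0.95, adjusted p = 0.27 from limma). Receptor medians were 0.045 between control SHPCs and MHs, with 7 of 13 positive (46.2% of all probes), and 0.24 between BM-MC SHPCs and MHs, with 9 of 13 (50.5%).

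The other brakes on receptor and Ras signalling, such as the ubiquitin ligases of the Cbl family and the Ras GTPase-activating proteins, had 13 of 15 genes tested. Between the SHPC groups 9 were positive, 2 were higher and 1 lower at an unadjusted p under 0.05 (10.7% and 5.92% of all probes), and the median was 0.18. Of the 6 other MAPK phosphatases 3 were tested, with 2 positive, 1 higher at an unadjusted p under 0.05 and a median of 0.050. Of the 12 atypical dual-specificity phosphatases, which lack the kinase-binding domain of the MAPK phosphatases, 8 were tested, with 5 positive, 1 higher and a median of 0.062. Between control SHPCs and MHs the medians of these 3 lists were -0.19, -0.56 and 0.12, and between BM-MC SHPCs and MHs they were -0.15, -0.27 and -0.14. In the former comparison 3 of 13, 0 of 3 and 5 of 8 were positive, against 46.2% of all probes. At an unadjusted p under 0.05, 4, 2 and 2 were lower and 0 higher, against 11.0% and 8.21%. In the latter 6, 0 and 3 were positive (50.5% of all probes), 0, 1 and 0 were lower (5.95%) and 0 higher (7.33%).

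**Figure D4:**
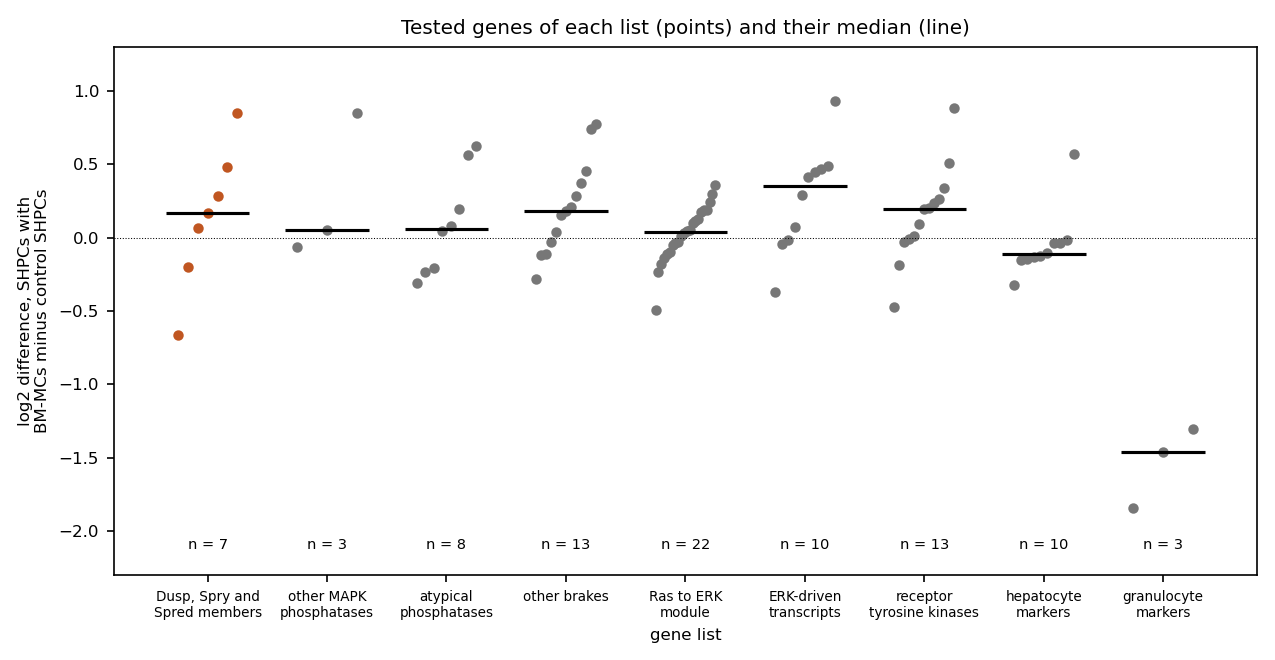
Log2 difference of SHPCs with BM-MCs from control SHPCs (y axis) for every tested gene of each list (x axis), 1 point a gene, with the list's median as a line and the number of tested genes under it. The members run from -0.66 for Spry2 to 0.85 for Dusp1, and the 3 tested granulocyte markers lie between -1.84 and -1.30.

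Cells in the cut areas were read from marker lists. The 10 hepatocyte markers had 1 positive difference between the SHPC groups, against 52.6% of all probes, with a median of -0.11. At an unadjusted p under 0.05, 0 of them were higher and 0 lower, against 10.7% and 5.92% of all probes. Of the 6 granulocyte markers 3 were tested, and S100a8, S100a9 and Retnlg were each lower in every BM-MC sample than in every control SHPC sample, by -1.46, -1.84 and -1.30 in the fit (adjusted p = 0.12, 0.068 and 0.086 from limma). The mean of these 3, centred on each gene, ran from 0.50 to 1.06 in control SHPCs and from -0.93 to -0.60 with BM-MCs, and was -0.85 and 0.96 in the MHs, while Mpo, Camp and Elane were well above background on 0 of 7 arrays. The same mean over the 8 Kupffer cell markers ran from -0.52 to -0.012 in control SHPCs, from -0.30 to 0.20 with BM-MCs and from 0.22 to 0.42 in the MHs. For the 8 stellate cell markers it ran from -0.19 to 0.0020 in control SHPCs and from -0.15 to 0.39 with BM-MCs, and was -0.20 and 0.11 in the MHs. For 6 sinusoidal endothelial markers it ran from -0.21 to 0.013 in control SHPCs and from -0.14 to 0.15 with BM-MCs, and was 0.21 and 0.039 in the MHs, both above every control SHPC sample. For 6 biliary and ductular markers it ran from 0.32 to 0.63 in control SHPCs, from -0.39 to 0.53 with BM-MCs and from -0.95 to -0.40 in the MHs. Among them Cftr was well above background on 3 and Cldn4 and Krt7 on 4 of 7 arrays. Between the SHPC groups 1 of the 6 had a positive difference, Sox9, which was well above background on all 7. It was at -2.5, -2.9 and -2.2 in control SHPCs and at -2.5, -1.9 and -1.4 with BM-MCs. Of all marker genes, Rgs5 of the stellate list was the 1 that passed, lower in control SHPCs than in MHs by -1.09 (adjusted p = 0.034 from limma). Its list was split in that comparison, with a positive difference for 4 of 8 genes (46.2% of all probes) and a median of 0.049. At an unadjusted p under 0.05, 3 of the 8 were higher and 3 lower, against 8.21% and 11.0% of all probes. The part of these cells in the values of Dusp1, Dusp5 and Spry1 was not tested.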

How the data were processed

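Total RNA of the captured cells was labelled with Cy3 and hybridised to 8 Agilent arrays. The authors deposited processed signal intensity values, from which Agilent Feature Extraction 10.7 (named in the submitters' processing notes) had subtracted background, without scaling between arrays. The members, gene lists and tests were chosen with earlier results of these data known.

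Each log2 intensity was set against the 75th percentile of its array, outlier spots were left out and spots of a probe averaged. A probe entered the test if it was well above background on 3 or more of 7 completely marked arrays. limma 3.58.1 (R 4.3.3) was used, p-values were adjusted by Benjamini-Hochberg over all 23111 such probes, and the threshold was 0.05. The SHPC groups were compared in a fit of the 6 SHPC samples, and comparisons with MHs in a fit of all 8. The number of arrays limits the precision. Probes were named through RefSeq accession (21109), current symbol (6684), synonym (424) or the array file (7635), and 9746 stayed unnamed.

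Named were all 9 members, each by its brightest tested probe (Dusp4 and Spred2, with none tested, by the brightest of all), listed genes past the adjusted threshold, Egfr, Mapk3, Etv4, Etv5, Egr1, Phlda1 and Ccnd1, and the 5 genes most correlated with Dusp6. One further gene of that rule is not reported here. The 6 granulocyte markers, the named biliary and ductular markers and the other untested ERK-driven transcripts were named after their values were seen. On simulated data for 22988 probes, the test of SHPCs with BM-MCs against control SHPCs recovered 38% of 100 2-fold and 73% of 100 4-fold changes, with 10 false calls among the unchanged probes. Alternatives covered scaling, filter, background correction, test, blocks and left-out samples. The probe positions in the array file were not used, since their build is uncertain.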

Additional observations from a re-analysis of the deposited data

How the results depend on the processing

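No member passed the adjusted threshold under any alternative that was run. Without adjustment, at p under 0.05, the methods' t-test called 1 member between the SHPC groups, Dusp5, and after Benjamini-Hochberg adjustment 0. Between these groups Dusp1, Dusp5 and Spry1 stayed positive in all 21 alternatives, from 0.26 to 1.10, from 0.096 to 0.34 and from 0.29 to 0.67, and Spry2 (20 alternatives, since its probe was not above background on all 7 arrays) and Spry4 (21) stayed negative, from -1.96 to -0.0096 and from -0.39 to -0.0018. Scaling to the median of each array put the median of all probes at -0.17 between the SHPC groups and at -0.19 between BM-MC SHPCs and MHs, where it was 0.018 and 0.0030. On that scale Dusp6 was at -0.025 and Spred1 at -0.12 between the SHPC groups, and Dusp5 at -0.089 and Spry4 at -0.044 against MHs. Spred1 was also reversed with quantile normalization (-0.055), with normexp on 7 arrays (-0.12) and with the slide position as a block (-0.071). Against MHs in SHPCs with BM-MCs, Spry4 was at -0.031 with quantile normalization and -0.0087 with normexp, and the slide position block put Dusp5 at -0.051 and Spry2 at -1.19. Dusp1 between control SHPCs and MHs was at 0.0093 with normexp. The cause of these reversals was not tested.

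With each sample left out, Dusp1 between control SHPCs and MHs ran from -0.74 to 0.57, positive without MH replicate 1 or control SHPC replicate 2. Between BM-MC SHPCs and MHs Dusp1 ran from 0.11 to 1.42. Spred1 ran from -0.28 to 0.018 between control SHPCs and MHs and from -0.22 to 0.085 between BM-MC SHPCs and MHs, where Spry4 ran from -0.11 to 0.42, each changing sign without MH replicate 2. Where 1 MH sample was left, it was assumed to vary like the other groups.

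With the replicate number as a block, 0 members were called in each comparison. Same-numbered SHPC samples correlated at 0.13, 0.078 and 0.17 in their deviations from the group means, and differently numbered ones at -0.15 to 0.082. These values do not settle whether the numbers pair the samples, and the main fits left pairing out. Under the replicate block 0, 159 and 0 probes were called, against 5, 262 and 78 without it. Dusp1 between the SHPC groups then had an unadjusted p = 0.0028 and an adjusted p = 0.21 from limma. Over all alternatives with adjusted p-values, the number of probes called among all genes ran from 0 to 530 between the SHPC groups, the latter without control SHPC replicate 3. It ran from 0 to 559 between control SHPCs and MHs and from 0 to 130 between BM-MC SHPCs and MHs, the highest with limma's intensity trend.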

Other observations

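Some listed genes outside the naming rule were picked after their values were seen. Dusp8, a neuronal-type MAPK phosphatase, differed by 0.85 between the SHPC groups (with BM-MCs minus control) (adjusted p = 0.14 from limma) and by -1.12 between control SHPCs and MHs (adjusted p = 0.13 from limma), without overlap in either comparison. Spred3, the family member not among the 9 genes, differed by 0.78 between the SHPC groups (adjusted p = 0.13 from limma), also without overlap. Myc, an ERK-driven transcription factor, differed by 0.93 (adjusted p = 0.17 from limma), with levels of 0.62, -0.22 and 0.17 with BM-MCs and of -0.60, -0.71 and -0.92 in control SHPCs. None of these passed the adjusted threshold.

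Control SHPC replicate 3 gave the highest level of the 8 samples for Dusp4 (-5.18), for Spry2 (-3.45) and for Dusp10 (-3.97, against -8.38 to -6.74 in the other samples). Each of the 3 probes was not well above background on some arrays, and Dusp10 and Dusp4 were above it on 1 of 7.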
